A study of Homo sapiens with 6 samples.

Results

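Fibroblast growth factor (FGF) signalling was followed through 10 genes, the ligands FGF2, FGF4, FGF8, FGF10, FGF17 and FGF19 and the receptors FGFR1, FGFR2, FGFR3 and FGFR4. The genes were taken by symbol from a deposited expression table of 58735 genes, and each symbol matched 1 gene. The data are 6 RNA sequencing libraries of H9, an established human embryonic stem cell line, collected at day 0, 2, 3, 4, 6 and 30 of differentiation into cardiac organoids, which are 3-dimensional cultures of heart cell types. All groups are of that line and differ in the day alone as far as the labels say, and no agent, dose or genotype is named there. The labels give 10 organoids harvested per time point and 1 library for each, so the organoids of a day were not measured apart and no difference has a replicate check or a p-value.

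FGFs are secreted proteins that bind receptor tyrosine kinases together with heparan sulfate, a sugar chain of the cell surface and matrix, and the receptors signal through the adaptor FRS2 to the RAS-ERK kinases. In the gastrulating embryo, FGF4, FGF8 and FGF17 are ligands of the primitive streak and the young mesoderm, and FGF8 and FGF10 are later made by progenitors of the second heart field. FGF2 is the factor used to keep human embryonic stem cells undifferentiated, and FGF19 is a hormone-like FGF that acts on the liver through FGFR4 and the co-receptor KLB.

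Levels are given in FPKM, read counts adjusted for the length of the gene and the depth of the library. The length of each of the 10 genes is that of all its annotated exons together, as 13842 bases for FGFR1 and 4848 for FGFR3. The transcripts in use may be shorter, so comparisons of level between genes are approximate. Recovered reads per library ran from 13500887 to 15526924. A gene was tested between 2 libraries when it had at least 1 FPKM in either, and it was called higher or lower when log2(FPKM + 1) differed by at least 1. "Rose" and "fell" are used below for such calls only. Folds are ratios of FPKM with 95% intervals, and these cover counting error only. The label of an embryonic stem cell, given to all 6 libraries, matched its markers at day 0, where 7 of 7 pluripotency genes had at least 1 FPKM and summed to 1565 FPKM. At day 30, 2 of the 7 did, their sum was 5.06 FPKM and NANOG had 0 reads. Of 10 cardiomyocyte genes, 2 had at least 1 FPKM at day 0, 8 at day 6 and 10 at day 30, with summed levels of 5.71, 375 and 213 FPKM. Most of the sum at day 6 was MYL7, at 336 FPKM against 64.0 at day 30. Between those days 5 of the 10 rose and 2 fell, where 21.0% of all tested genes were higher and 15.3% lower.

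FGF17 had the highest level of the ligands from day 2 to day 4. FGF17 (ENSG00000158815, chromosome 8, 22042398 to 22048809, plus strand) stood at 0.272 FPKM at day 0, 153 at day 2, 84.9 at day 3, 60.0 at day 4, 0.704 at day 6 and 0.960 at day 30. It was high on the 3 middle days and under 1 FPKM on the others. The gene rose 563-fold at day 2 (329 to 1059) and fell 85.3-fold between day 4 and day 6 (62.5 to 120). Each step down within days 2 to 4 lay outside counting error but under the call, at 1.81-fold (1.74 to 1.88) and 1.41-fold (1.35 to 1.48). At day 2 its level was above that of 98.8% of genes with at least 1 FPKM. In bulk RNA, fewer cells that express a gene and less of its RNA per cell cannot be told apart, here and in every result that follows.

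FGF4 rose with FGF17 but left sooner. FGF4 (ENSG00000075388, chromosome 11, 69771016 to 69775403, minus strand), a ligand of the early embryo, had 0.468 FPKM at day 0, 33.4 at day 2, 3.73 at day 3, 0.646 at day 4, 0.0716 at day 6 and 0 at day 30. The library of day 2 stood alone, 71.4-fold above day 0 (47.0 to 114). The gene fell 8.96-fold to day 3 (7.66 to 10.5) and 5.78-fold to day 4 (3.96 to 8.66). The 0 reads of day 30 have an upper counting limit of 0.0924 FPKM, and the lower counting limit of the fold of day 2 over day 30 is 362. Against a floor of 3 reads, or 0.0751 FPKM, the ratio is 445.

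FGF8 followed the same window at a lower level. FGF8 (ENSG00000107831, chromosome 10, 101770130 to 101780369, minus strand), from the same subfamily as FGF17, had 0.0981 FPKM at day 0, 7.57 at day 2, 3.83 at day 3, 6.95 at day 4, 1.53 at day 6 and 0.231 at day 30. Days 2 and 4 did not differ beyond counting error (1.09-fold, 0.871 to 1.36), and day 3 lay below both. FGF8 rose 77.1-fold at day 2 (21.0 to 642), a fold that rests on 2 reads at day 0. It fell 4.55-fold to day 6 (3.16 to 6.71) and 6.61-fold more to day 30 (2.37 to 25.5). FGF17 exceeded FGF8 by 22.2-fold at day 3 (17.7 to 28.2) and 8.64-fold at day 4 (7.35 to 10.2).

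FGF2 and FGF19 were the ligands above 1 FPKM at day 0. FGF2 (ENSG00000138685, chromosome 4, 122826708 to 122898236, plus strand) had 13.7 FPKM at day 0, 5.32 at day 2, 2.16 at day 3, 2.13 at day 4, 2.19 at day 6 and 3.42 at day 30. It was highest at day 0, and days 3, 4 and 6 did not differ beyond counting error. FGF2 fell 2.57-fold at day 2 (2.33 to 2.84). The next step, to day 3, was 2.46-fold lower (2.10 to 2.89) with a log2 difference of -0.9988, just short of a call.

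FGF19 had 2 separate periods of expression. FGF19 (ENSG00000162344, chromosome 11, 69698232 to 69704642, minus strand) stood at 10.4 FPKM at day 0, 11.6 at day 2, 1.65 at day 3, 0.828 at day 4, 4.37 at day 6 and 0.397 at day 30. Days 0 and 2 did not differ beyond counting error (1.12-fold, 0.972 to 1.29), days 3 and 4 were low, and day 6 was again higher. FGF19 fell 7.004-fold to day 3 (5.32 to 9.37), rose 5.28-fold from day 4 to day 6 (3.62 to 7.95) and fell 11.02-fold to day 30 (6.16 to 21.7). The rise at day 6 fell together with liver markers, of which 5 of 7 had at least 1 FPKM at day 6 against 2 at day 4, with sums of 370 and 4.92 FPKM. At day 0 the sum of these 7 was 0.398 FPKM, and ALB, TTR, SERPINA1 and FGB had 0 reads. Endoderm markers had 8 of 8 genes at 1 FPKM or more at day 6 against 7 at day 4, while their sum was lower, 188 against 361 FPKM. The part of these cell types in the FGF19 level was not tested.

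FGF10 was the one ligand of the 6 that reached its highest level at day 6. FGF10 (ENSG00000070193, chromosome 5, 44303544 to 44389706, minus strand), a ligand of second heart field progenitors and of mesenchyme next to budding epithelia, had 0.160 FPKM at day 0, 0.743 at day 2, 1.07 at day 3, 2.82 at day 4, 3.67 at day 6 and 1.37 at day 30. Its levels stayed low throughout, and no consecutive step was called. Day 6 was 22.9-fold above day 0 (10.9 to 57.8), the neighbouring days 6 and 4 differed by 1.30-fold (1.04 to 1.64), and days 3 and 30 did not differ beyond counting error. Between the ends of the course FGF10 rose 8.57-fold (3.87 to 22.4), and both folds rest on 7 reads at day 0. That call, at a log2 difference of 1.03, was lost when libraries were scaled by their read totals or when 5 FPKM were required. Cardiac progenitor markers, of which 6 of 8 had at least 1 FPKM at day 4 and 7 at day 6, summed to 271 and 409 FPKM on those days and to 1.63 at day 0. Most of both sums was HAND1, at 193 and 277 FPKM. From day 4 to day 6, 4 of the 8 rose and 0 fell, where 5.51% of all tested genes were higher and 6.71% lower. ISL1 was lower at day 6 without a call (26.5 to 16.0 FPKM). The part of cardiac progenitors in the FGF10 level was not tested.

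**Figure D1:**
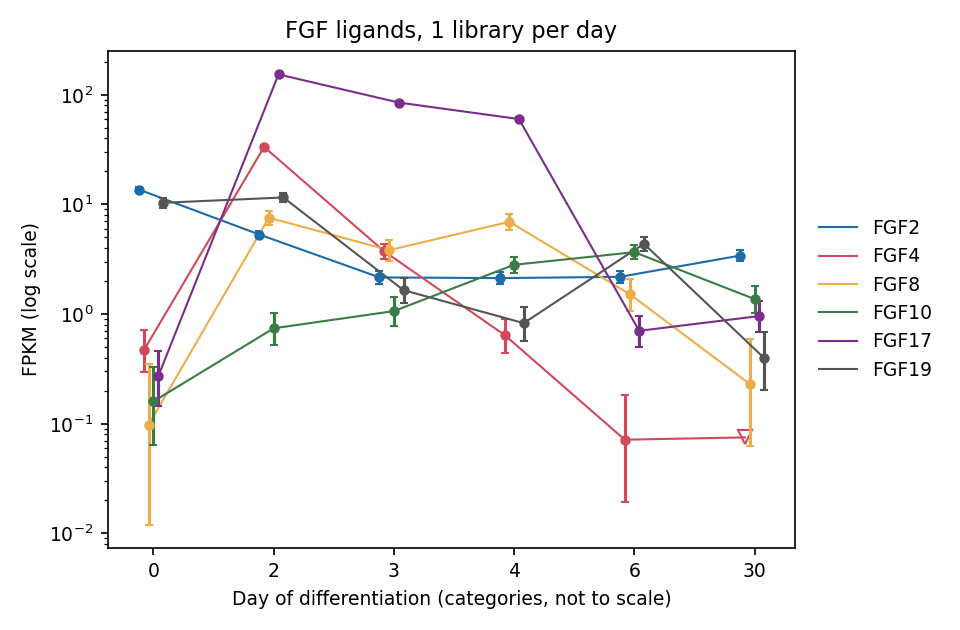
FPKM of the 6 FGF ligands (log axis) in the 1 library of each day, with 95% Poisson counting intervals; the open triangle stands at the floor of 3 reads for FGF4 at day 30, which had 0 reads. FGF17, FGF4 and FGF8 are highest at day 2, FGF2 at day 0 and FGF10 at day 6, and FGF19 is high at days 0 and 2 and again at day 6.

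The order of the ligands changed with nearly every day. At day 0 FGF2 led FGF19 by 1.32-fold (1.17 to 1.48), and FGF4, FGF17, FGF10 and FGF8 followed with neighbours that did not differ beyond counting error. At day 2 the order was FGF17, FGF4, FGF19, FGF8, FGF2 and FGF10, and every neighbour differed. At day 6 FGF19 and FGF10 led and did not differ beyond counting error (1.19-fold, 0.968 to 1.47). At day 30 FGF2 led FGF10 by 2.49-fold (1.84 to 3.43).

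FGF19, FGF4 and FGF3 lie next to each other on the minus strand of chromosome 11, and all 3 were above 1 FPKM at day 3. Between FGF4 and FGF3 are 34565 bases with 0 other genes of the table, and between FGF19 and FGF4 are 66373 bases with 1. FGF3, which is not among the 10 genes, was at 0 FPKM on days 0 and 30, 0.972 on day 2, 2.41 on day 3, 1.09 on day 4 and 0.334 on day 6. The highest library was day 2 for FGF4 and day 3 for FGF3. For FGF19 it was day 2 as well, but days 0 and 2 of that gene did not differ beyond counting error.

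All 4 receptors were highest at day 6. FGFR3 had the widest range. FGFR3 (ENSG00000068078, chromosome 4, 1793293 to 1808872, plus strand), known as a brake on bone growth, had 1.99 FPKM at day 0, 12.9 at day 2, 45.0 at day 3, 55.7 at day 4, 90.7 at day 6 and 9.53 at day 30. The level was higher at each of the days from 0 to 6 than at the one before, each time beyond counting error. FGFR3 rose 6.48-fold to day 2 (5.42 to 7.79) and 3.50-fold to day 3 (3.26 to 3.76), and fell 9.51-fold between day 6 and day 30 (8.74 to 10.4). Day 30 remained 4.80-fold above day 0 (3.98 to 5.81), which was a call.

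FGFR4 followed FGFR3 from day 2 to day 30 at lower levels. FGFR4 (ENSG00000160867, chromosome 5, 177086886 to 177098144, plus strand), the receptor of FGF19 in liver, had 9.83 FPKM at day 0, 11.9 at day 2, 25.1 at day 3, 31.1 at day 4, 57.6 at day 6 and 5.46 at day 30. It differed from FGFR3 at day 0, where it was 4.95-fold higher (4.12 to 5.98), and at day 2 the 2 did not differ beyond counting error (1.09-fold, 0.992 to 1.19). FGFR4 rose 2.11-fold to day 3 (1.95 to 2.29) and fell 10.5-fold between day 6 and day 30 (9.43 to 11.8). The KLB and KL co-receptors, singled out after their values were seen, stood at no more than 0.418 FPKM (KLB, day 6) and 0.272 FPKM (KL, day 30) on any day. At the last step, in which FGFR4 fell, 21.0% of all tested genes were higher and 15.3% lower. Of 7 liver markers, 4 rose and 2 fell, APOA1 (264 to 125 FPKM) and APOB (10.7 to 3.54 FPKM). The sum of the 7 went from 370 to 656 FPKM. Of 8 endoderm markers, 5 fell and 0 rose in that step, and their sum went from 188 to 81.9 FPKM. The part of these cell types in the FGFR4 level was not tested.

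FGFR2 had 2 separate rises. FGFR2 (ENSG00000066468, chromosome 10, 121478334 to 121598458, minus strand), whose spliced forms serve epithelium or mesenchyme, had 14.7 FPKM at day 0, 7.97 at day 2, 22.1 at day 3, 11.9 at day 4, 55.1 at day 6 and 6.30 at day 30. Days 3 and 6 were high, and the levels at days 2, 4 and 30 were lower than at day 0. FGFR2 rose 2.78-fold to day 3 (2.57 to 2.99), was 1.86-fold lower at day 4 without a call (1.74 to 1.99), rose 4.63-fold to day 6 (4.38 to 4.91) and fell 8.74-fold to day 30 (8.04 to 9.52). The table gives 1 value per gene, so the epithelial and mesenchymal forms were not separated.

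FGFR1 changed least. FGFR1 (ENSG00000077782, chromosome 8, 38400215 to 38468834, minus strand), the main receptor of the early embryo, had 49.95 FPKM at day 0, 34.5 at day 2, 52.4 at day 3, 64.3 at day 4, 66.4 at day 6 and 27.0 at day 30. Its highest and lowest libraries differed by 2.46-fold (2.38 to 2.54), against 8.74-fold for FGFR2, 10.5-fold for FGFR4 and 45.6-fold for FGFR3 (38.6 to 54.3). The call of FGFR1 was the fall between day 6 and day 30, at a log2 difference of -1.27.

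**Figure D2:**
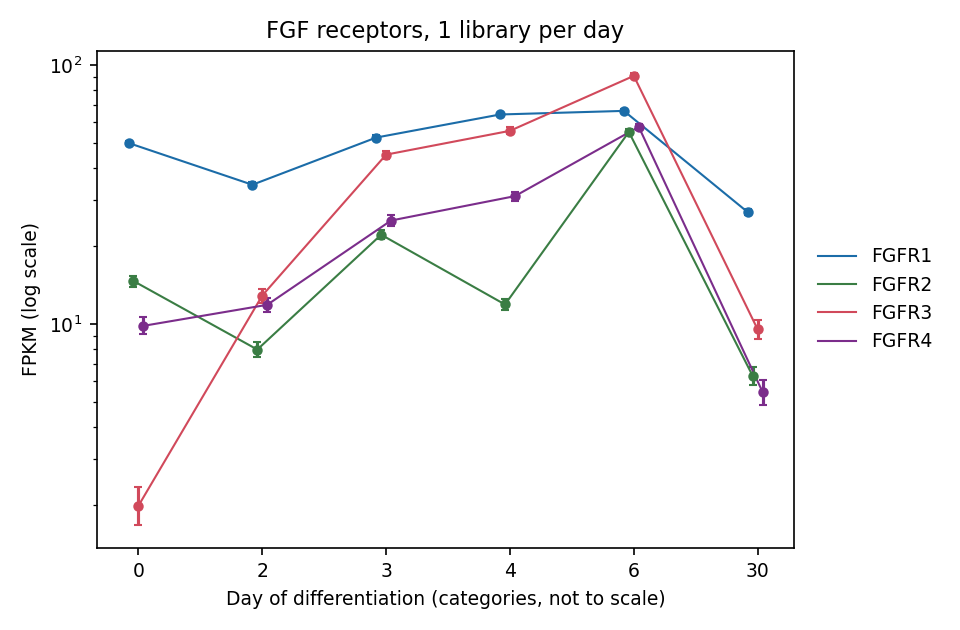
FPKM of the 4 FGF receptors (log axis) in the 1 library of each day, with 95% Poisson counting intervals. All 4 are highest at day 6 and lower at day 30, and FGFR3 starts at 1.99 FPKM and ends at 9.53.

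The promoters of FGFR2, FGFR3 and FGFR4, the 3 receptors that rose together at day 3 and fell together at day 30, are shown from RefSeq (GRCh38.p14), whose table matched 5 of the 10 genes. FGF4, FGF8, FGF17, FGF19 and FGFR1 were not matched. For FGFR2 and FGFR4, which have 5 and 2 entries, the first entry of that table was used. Each sequence is the 220 bases from 250 to 31 bases before the start, on the strand of the gene, a window that held 0 exon bases in GENCODE. Capitals mark matches to any of 7 motifs searched on both strands, none of which contains another. The letters searched were TATAAA for the core promoter box of that name, AGGTGTG for T-box factors, ATCAAAG for TCF/LEF factors, CCGGAAG for ETS factors, GGGCGG for the GC box, CAGATG for the E-box and TGCAAAT for part of the octamer.
FGFR2, chr10:121598475-121598694, minus strand: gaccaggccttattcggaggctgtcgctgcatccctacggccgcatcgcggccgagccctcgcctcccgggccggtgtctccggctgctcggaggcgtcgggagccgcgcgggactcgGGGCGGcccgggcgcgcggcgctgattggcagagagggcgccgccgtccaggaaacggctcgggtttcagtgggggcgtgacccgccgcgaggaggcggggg
FGFR3, chr4:1793043-1793262, plus strand: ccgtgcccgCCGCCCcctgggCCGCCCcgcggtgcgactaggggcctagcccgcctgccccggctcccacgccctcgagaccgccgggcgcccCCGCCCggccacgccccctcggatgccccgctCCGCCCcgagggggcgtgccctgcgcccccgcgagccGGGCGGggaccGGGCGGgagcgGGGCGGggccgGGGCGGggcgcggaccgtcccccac
FGFR4, chr5:177086665-177086884, plus strand: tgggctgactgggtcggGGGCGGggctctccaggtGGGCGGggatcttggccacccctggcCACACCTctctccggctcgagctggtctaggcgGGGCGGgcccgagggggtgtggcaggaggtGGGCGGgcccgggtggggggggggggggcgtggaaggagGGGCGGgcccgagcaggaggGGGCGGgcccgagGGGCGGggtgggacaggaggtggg
FGFR3 held 8 matches of the GC box, FGFR4 7 and FGFR2 1, and 38.9% of 35116 RefSeq promoter windows held at least 1. FGFR4 also held 1 match of the T-box letters, as did 3.46% of windows. The other 5 motifs had no match in these 3. Of all windows, 2.03% held the TCF/LEF letters, 3.36% the octamer part, 6.35% the ETS letters, 8.08% the core promoter box, and 3865 windows held the E-box. GC content was 76.4% for FGFR2, 87.3% for FGFR3 and 79.1% for FGFR4, against a median of 57.7% over all windows. A match describes the letters and is no evidence of a bound factor.

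The make-up of the receptor pool shifted from FGFR1 mostly to FGFR3, and partly back by day 30. The 4 receptors summed to 76.4 FPKM at day 0, 67.2 at day 2, 145 at day 3, 163 at day 4, 270 at day 6 and 48.3 at day 30. FGFR1 held 65.4% of that sum at day 0, 51.3% at day 2, 36.2% at day 3, 39.5% at day 4, 24.6% at day 6 and 55.9% at day 30. FGFR3 went from 2.60% at day 0 to 19.2% at day 2 and stood at 31.1%, 34.1% and 33.6% at days 3, 4 and 6 and at 19.7% at day 30. FGFR4 took between 11.3% and 21.4%. FGFR2 held 19.2% at day 0, and its share lay between 7.29% at day 4 and 20.4% at day 6. FGFR1 led on every day but day 6, where FGFR3 exceeded it by 1.37-fold (1.33 to 1.40). That order at day 6 turns round without division by gene length, since FGFR1 held 44.7% of receptor reads and FGFR3 21.4%.

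The summed levels of ligands and receptors peaked on different days. The 6 ligands together had 25.0 FPKM at day 0, 212 at day 2, 97.3 at day 3, 73.4 at day 4, 12.5 at day 6 and 6.38 at day 30. Their sum was thus 3.16 times that of the receptors at day 2, while at day 6 the receptors summed to 21.5 times the ligands. FGF17 alone was 153 FPKM of the ligand sum at day 2. Without division by gene length, ligands had 11100 reads and receptors 10580 at day 2, and 713 and 35530 at day 6. The 6 made up between 89.8% and 97.8% of the summed level of all 18 secreted FGFs from day 0 to day 6, but 26.3% at day 30. At day 30 FGF7, a mesenchymal ligand of epithelial FGFR2 and not among the 10 genes, held 46.1%. FGF7 had 0.0103 FPKM at day 0, 0 at days 2, 3 and 4, 0.0261 at day 6 and 11.2 at day 30, and rose 429-fold from day 6 (146 to 2085), a fold that rests on 3 reads at day 6. Fibroblast and mesenchyme markers summed to 653 FPKM at day 6 and 5924 at day 30, with 5 and 7 of 7 genes at 1 FPKM or more. DCN, LUM and COL3A1, at 0 reads on day 0, were among them. Their part in the FGF7 level was not tested. By subfamily, FGF8, FGF17 and FGF18 together held 75.2% of the secreted FGF level at day 2, 87.7% at day 3 and 86.6% at day 4. The FGF7 subfamily (FGF3, FGF7, FGF10 and FGF22) held 31.0% at day 6 and 53.6% at day 30.

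**Figure D3:**
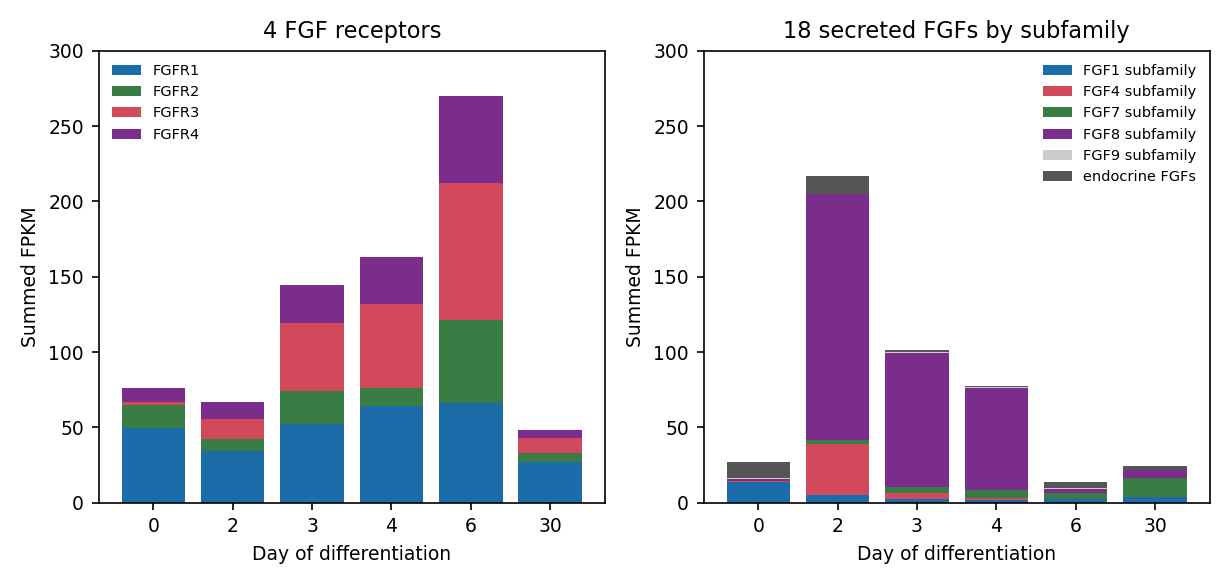
Summed FPKM by day of the 4 FGF receptors (left) and of the 18 secreted FGFs grouped by subfamily (right), as stacked bars on the same scale, with 1 library per day and no error bars. Receptors reach 270 FPKM at day 6, whereas secreted FGFs reach 217 at day 2, most of it from the FGF8 subfamily.

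The calls among the 10 genes were read against those among all genes. At day 2 against day 0, FGF4, FGF8, FGF17 and FGFR3 were higher, where 8.78% of 16019 tested genes were, and FGF2 was lower, where 7.75% were. FGF10 was not tested there. At day 3 against day 2, FGFR2, FGFR3 and FGFR4 were higher (7.13% of 16149 genes) and FGF4 and FGF19 lower (4.98%). The 6 ligands had a median log2 difference of -0.92 in that step and the 4 receptors of 1.19, with -0.02 over all genes tested. At day 4 against day 3, 0 of the 10 were higher (4.23% of 16376 genes) and FGF4 was lower (3.59%), so this step was close to the background.

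At day 6 against day 4, FGF19 and FGFR2 were higher (5.51% of 16727 genes), FGF8 and FGF17 lower (6.71%), and FGF4 was not tested. At day 30 against day 6, 0 were higher (21.0% of 18023 genes) and FGF8, FGF19 and the 4 receptors lower (15.3%), with FGF4 and FGF17 not tested. The receptors' median log2 difference was -3.03 in that step, against 0.08 over all genes tested. At day 30 against day 0, FGF10 and FGFR3 were higher (25.9% of 17874 genes) and FGF2, FGF19 and FGFR2 lower (19.1%), with FGF4, FGF8 and FGF17 not tested. Of the 7 tested in this last comparison, the 2 higher were near the share of all genes and the 3 lower were above it. With so few genes tested, these counts are no result about the group. Consecutive steps share a library, so a high value at day 2 or day 6 enters the step before it and the step after it.

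**Figure D4:**
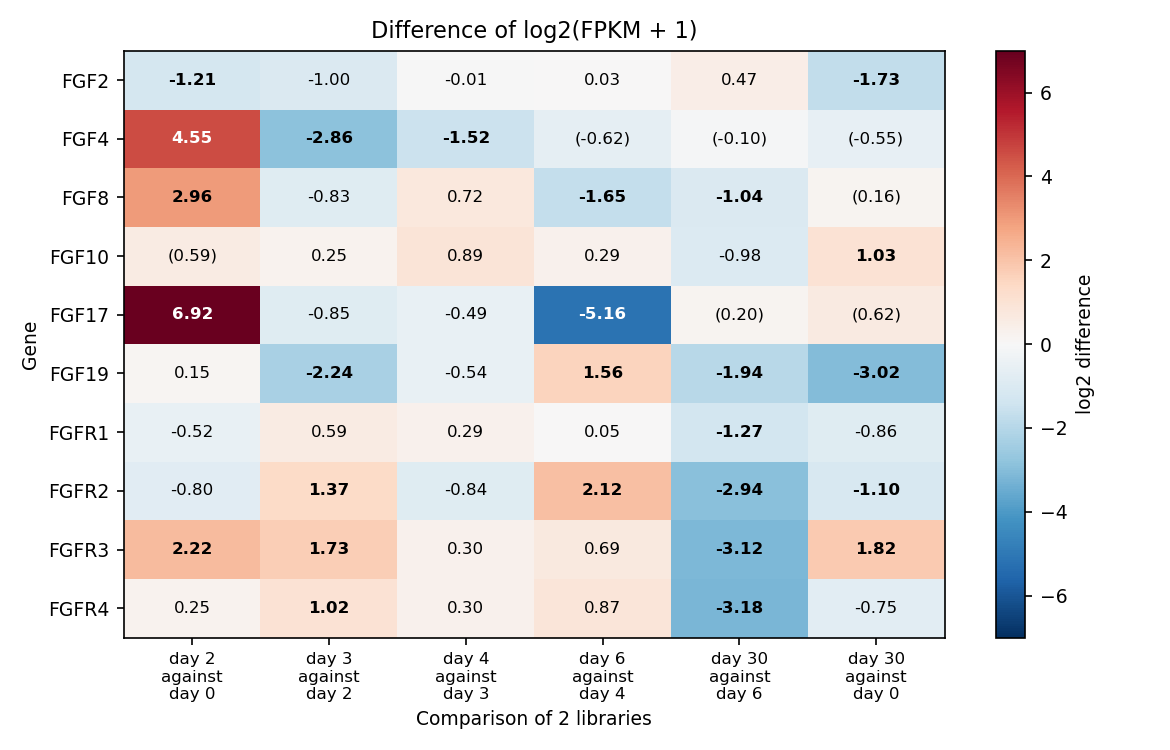
Difference of log2(FPKM + 1) of the 10 genes (rows) in the 6 comparisons of 2 libraries (columns), with values printed in the cells; bold marks a call, parentheses a gene under 1 FPKM in both libraries. FGF17 has the greatest rise (6.92) and fall (-5.16), FGF2 at day 3 against day 2 lies just short of a call, and the 4 receptors share a fall at day 30.

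Among the other parts of the pathway, few relay genes were called in any comparison, and 8 of 15 tested feedback and target genes fell at day 6. Of 18 adaptor and RAS-ERK relay genes, all tested in each comparison, none was called in the steps to days 3, 4 and 6. In those steps 12.1%, 7.82% and 12.2% of all tested genes were called, with both directions together. HRAS rose at day 2 (8.78% of all tested genes higher), and MAP2K1 rose between day 6 and day 30 (21.0% higher). The relay's median log2 difference was 0.55 in that last step, against 0.08 over all genes tested. Between day 0 and day 30, HRAS and MAPK3 rose and NRAS fell, where 25.9% of all tested genes were higher and 19.1% lower. Of 16 feedback and target genes of FGF-ERK signalling, 3 rose and 1 fell at day 2, where 8.78% and 7.75% of all tested genes did. At day 3, 0 rose and 5 fell (7.13% and 4.98% of all). At day 4, 1 rose and 1 fell (4.23% and 3.59% of all). At day 6, 0 rose, 8 fell and 7 of the 15 tested were not called (5.51% higher and 6.71% lower of all), with a median log2 difference of -1.01 against -0.01 over all genes tested. SPRY4, an inhibitor of receptor signalling, fell 12.8-fold in that step (88.8 to 6.92 FPKM), ETV4, an ETS factor induced by FGF, fell 5.92-fold (20.4 to 3.45 FPKM), and IL17RD, a membrane antagonist, fell 4.88-fold (26.9 to 5.51 FPKM). In the same step FGF8 and FGF17 fell, FGFR2 rose and the other 3 receptors were not called. EGR1, an early response gene, fell 26.2-fold at day 3 (22.7 to 30.4), in the step in which FGF4 and FGF19 fell.

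Co-receptors and binding proteins had 9 genes, of which 4 to 6 were tested in a comparison. FLRT3, a membrane protein that binds FGF receptors, had 0.186 FPKM at day 0, 20.2 at day 2, 18.4 at day 3, 11.7 at day 4, 63.1 at day 6 and 5.19 at day 30. It rose 109-fold at day 2 (64.8 to 200) and 5.41-fold at day 6 (5.05 to 5.80), and fell 12.2-fold at day 30 (10.9 to 13.6), so that like the 4 receptors it was highest at day 6. FGFRL1, a receptor without a kinase domain, rose 3.30-fold at day 2 (4.43 to 14.6 FPKM). FGFBP3, a secreted FGF carrier, fell 5.22-fold in that step (14.9 to 2.86 FPKM). Of 4 intracellular FGF homologous factors, which bind sodium channels and are not secreted, 2 or 3 were tested in a comparison. None was called in a consecutive step, where 3.59% to 21.0% of all tested genes were called in a given direction. FGF12 and FGF13 fell between day 0 and day 30, where 25.9% of all tested genes were higher and 19.1% lower. With so few genes tested, these counts are no result about the group. Of 12 heparan sulfate core proteins, 11 were tested between day 0 and day 30, and 8 rose and 2 fell, where 25.9% of all tested genes were higher and 19.1% lower. The 2 falls are near that share. The median log2 difference was 1.59 against 0.13 over all genes tested. GPC6 rose 10.1-fold (7.82 to 79.2 FPKM), while GPC4 fell 9.64-fold (67.5 to 7.001 FPKM) after its highest level of 167 FPKM at day 3. SDC4 rose 2.55-fold at day 3 (27.0 to 69.0 FPKM), the step in which FGFR2, FGFR3 and FGFR4 rose, and SDC1 fell 5.80-fold (10.8 to 1.86 FPKM).

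**Figure D5:**
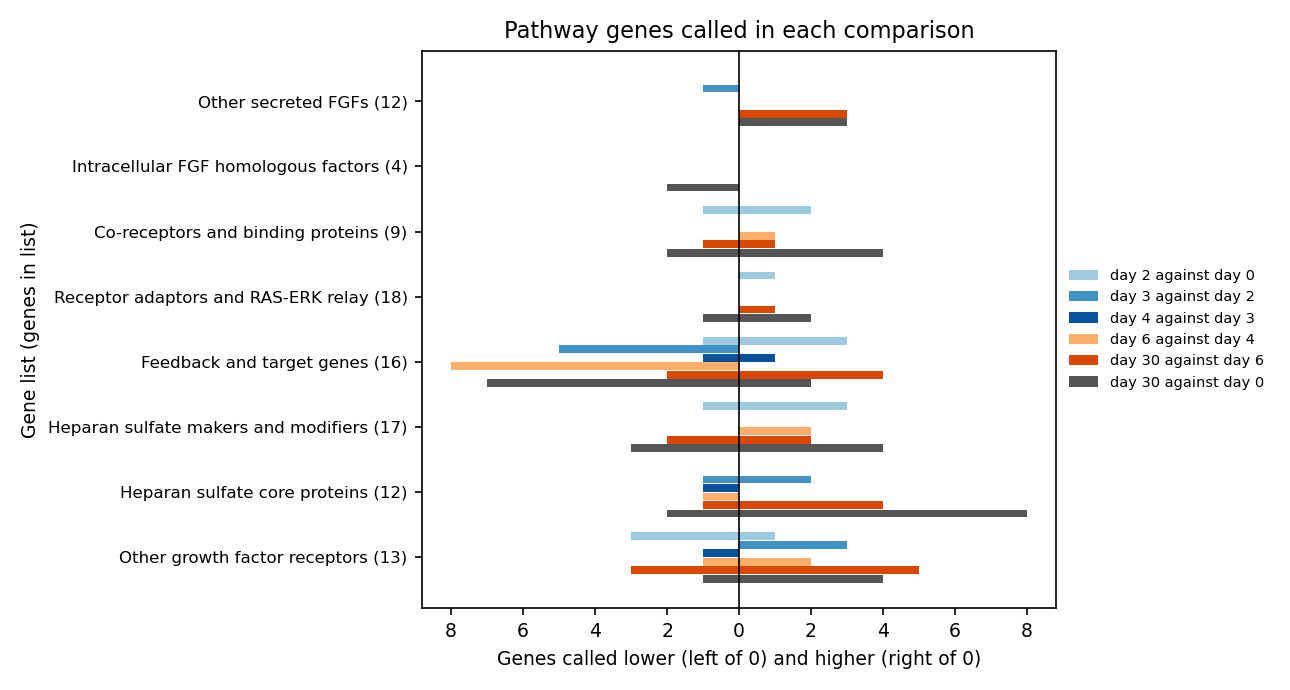
Number of genes called lower (left) and higher (right) in each of 8 FGF pathway lists, for the 6 comparisons; the number of genes in a list stands in parentheses. Feedback and target genes show 8 falls at day 6 against day 4, and heparan sulfate core proteins 8 rises at day 30 against day 0.

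The genes most like each member were sought among 11176 others with at least 5 FPKM on some day, by the root mean square difference of log2(FPKM + 1) over the 6 days after each gene's own mean was subtracted. FGF10 did not reach 5 FPKM and was left out. With 6 libraries and 11176 genes, close neighbours are found for most patterns, and these names describe these libraries only. FGF17 was closest to EOMES (0.745), the antisense gene AL009031.1 (0.745) and MIXL1 (0.832), of which EOMES and MIXL1 are primitive streak factors. FGF8 was closest to the WNT antagonist NKD1 (0.146), the homeobox factor MNX1 (0.199) and CNTNAP2 (0.271). FGF4 was closest to the calcitonin receptor CALCR (0.421), NODAL (0.522) and the pseudogene FABP5P7 (0.538). FGF2 was closest to HERC5 (0.110), SLC38A4 (0.135) and the pseudogene AK4P3 (0.152). For FGF19 the 3 were SNORD116-1 (0.295), SNORD116-29 (0.344) and PMEL (0.386), and the first 2 are small nucleolar RNA genes of 95 and 83 bases. At such lengths their levels rest on few reads, and SNORD116-29 had 0 FPKM at days 3, 4 and 30.

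Among receptors, FGFR4 was closest to the growth factor MDK (0.142), DENND2C (0.196) and the laminin chain LAMA1 (0.253). FGFR3 was closest to MIR3186 (0.358), the long noncoding AC110285.2 (0.402) and BAHCC1 (0.420), which are all on chromosome 17. MIR3186 is 85 bases long and had 0 FPKM at day 0, so its lower values also rest on few reads. FGFR2 was closest to the hedgehog receptor PTCH1 (0.333), LGR4 (0.358) and TRIM45 (0.405). FGFR1 was closest to CRACR2B (0.0906), TIA1 (0.0942) and BBS10 (0.0969). No member had another member among its 3 closest genes, and between members the closest pairs were FGFR2 with FGFR4 (0.583) and FGF10 with FGFR1 (0.616).

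Some reads of these genes may belong to overlapping genes, because no label or header states whether counting used strand. FGFR1 shares 156 exon bases with the antisense gene AC087623.1, which had 20.8 FPKM at day 0, 5.82 at day 2, 27.8 at day 3, 30.2 at day 4, 35.1 at day 6 and 11.7 at day 30. FGF2 shares 804 exon bases with NUDT6, whose level lay between 0.454 and 1.11 FPKM, and FGF10 shares 182 with FGF10-AS1, which had at most 0.0611 FPKM. Of the other 7 genes, none overlaps a gene of the table.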

How the data were processed

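RNA of 6 H9 libraries, 1 per day, was sequenced after poly-T selection, per the labels' protocols. The authors deposited FPKM values for 58735 genes in 1 table. The submitters' processing notes name CASAVA, HISAT2 and featureCounts 1.5.0-p3, while settings, build and use of strand are not stated in any label or header. All 58735 identifiers, starts, ends and strands equalled GENCODE release 29 on GRCh38. Whole reads were recovered from FPKM and length, to within 0.001 read for 100% of values above 0. The denominators behind FPKM were 0.826 (day 30) to 1.12 (day 6) times the read totals.

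Differences of log2(FPKM + 1) used a pseudocount of 1, which understates changes of low genes. Intervals are exact Poisson for levels and exact conditional binomial for folds, at 95%. They cover counting error only, since reads carry no molecular identifiers, and they leave out the scaling between libraries. Folds against 0 reads used a floor of 3 reads in that library. The members and lists were chosen with earlier results of these data known. From each list, up to 3 members with the greatest rise and fall among those called in a comparison could be named, and the 3 genes most like each member. FGF3, KL and KLB, levels of overlapping genes and the subfamily sums were added after values were seen. Calls and intervals were tested on simulated data. Python 3.11.15, numpy 2.4.6, pandas 2.3.3, scipy 1.17.1 and matplotlib 3.10.9 were used. Alternatives were another pseudocount, other minimums, 3 other scalings, stricter call rules, protein-coding genes only, shares of reads and Pearson correlation.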

Additional observations from a re-analysis of the deposited data

How the results depend on the processing

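No member's difference changed sign, and no day of highest level moved, under a pseudocount of 0.1, other FPKM minimums, scaling by read totals, TPM or median-of-ratios. Against the numbers of genes called in the report, the count at day 4 against day 3 (1 in the report) was 2 with a pseudocount of 0.1 (FGF10 added), 3 under TPM (FGF10 and FGFR2 added), and 0 at an FPKM minimum of 5 or a log2 rule of 2. With a log2 rule of 2, the counts were 2 at day 3 against day 2, 2 at day 6 against day 4, 3 at day 30 against day 6 and 1 at day 30 against day 0, from 5, 4, 6 and 5, and the 3 receptor rises at day 3 were among the calls lost. The other 46 counts stayed within 1.5 times. Scaling by read totals shifted the median log2 difference of all genes by -0.36 at day 30 against day 6 and by -0.19 against day 0, and TPM shifted it by 0.22 at day 3, -0.13 at day 4, 0.19 at day 6 and -0.28 at day 30, each against the day before it.

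Shares of receptor reads without division by gene length favour FGFR1, the longest gene, which then leads on all 6 days, day 6 included. For FGFR1 they were 80.4% at day 0, 72.6% at day 2, 58.9% at day 3, 63.6% at day 4, 44.7% at day 6, 75.6% at day 30. For FGFR2 they were 12.9% at day 0, 9.19% at day 2, 13.6% at day 3, 6.43% at day 4, 9.66% at day 30. For FGFR3 they were 1.12% at day 0, 9.5% at day 2, 17.7% at day 3, 19.3% at day 4, 21.4% at day 6, 9.35% at day 30. For FGFR4 they were 5.52% at day 0, 8.71% at day 2, 9.82% at day 3, 10.7% at day 4, 13.5% at day 6, 5.34% at day 30. The 3 genes named by Pearson correlation differed in part or whole for 8 of 9 members. No paired analysis was possible because each day has 1 library. No replicate could be left out for the same reason. Depth limits FGF4, FGF8, FGF10, FGF17 and FGF19 on their low days, where a value rests on few reads.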

Other observations

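Other growth factor receptors of the same signalling class went both ways at day 30. Of 13 such genes, 5 rose and 3 fell between day 6 and day 30, where 21.0% of all tested genes were higher and 15.3% lower. Their median log2 difference was 0.83, against 0.08 over all genes tested. All 4 FGF receptors fell in that step. EGFR (0.467 to 16.7 FPKM), PDGFRB (15.2 to 182 FPKM) and MET (0.493 to 3.52 FPKM) had the greatest rises, and KIT (12.8 to 0.902 FPKM) the greatest fall. In the same step 6 of 7 fibroblast and mesenchyme markers rose, and PDGFRA, which is on both lists, was not called (40.6 to 59.1 FPKM). Whether the difference between these receptors and the FGF receptors exceeds variation between samples was not tested, since each day has 1 library.

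Some enzymes that edit heparan sulfate changed at day 2. SULF1 fell 10.98-fold (9.79 to 0.892 FPKM) and SULF2, which encodes a sulfatase of the same kind, rose 4.01-fold (2.72 to 10.9 FPKM). HS3ST1 (0.278 to 2.89 FPKM) and HS6ST1 (8.94 to 22.4 FPKM), which add sulfate groups, rose in that step. Of the 17 makers and modifiers, 12 were tested there, 3 rose, 1 fell and 8 were not called. Of all tested genes, 8.78% were higher and 7.75% lower, and the 1 fall is near that share.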
